A study of Mus musculus with 4 samples.

Results

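The 32 genes described here encode the enzymes of cholesterol and fatty acid synthesis and the SREBP proteins that control them. They were chosen by name, as the rows of the deposited table that carry their symbols, and all 32 were found among 54641 gene symbols. The table came from bulk RNA sequencing of 4 mouse cell lines of small cell lung cancer (SCLC), each sequenced as 1 library. All lines derive from C57BL/6-background mice with conditional alleles of Rb1 and Trp53, both tumor suppressors, deleted in the lung by Adeno-Cre virus given through the trachea. Lines P1, P4 and P5 came from primary lung tumors of separate mice (n = 3), and line M1 came from a metastasis in the liver of another mouse (n = 1). All were grown untreated in RPMI medium with fetal serum. The study used mice of both sexes above a minimal age. The age and sex of the mouse behind each line and the promoter of the Cre virus are not given in the sources used here. Since metastasis is represented by a single line, a value in M1 cannot be told apart from a property of that line. In bulk RNA, fewer cells that express a gene and less RNA per cell cannot be told apart either.

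Cholesterol is built from acetyl-CoA through mevalonate and squalene, and fatty acids are built from the same acetyl-CoA through malonyl-CoA. The membrane-bound transcription factors SREBP1 and SREBP2 drive both branches. When sterols are scarce, the escort protein SCAP carries them from the endoplasmic reticulum to the Golgi for cleavage, and when sterols are plentiful the INSIG proteins hold the complex back. Growing tumor cells need both products for membranes, and cells in serum can also take up cholesterol from lipoproteins.

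The values are CPM, that is, reads of a gene per 1000000 reads assigned to all rows. Between 9527011 and 13890726 reads were assigned per library, as judged from the CPM that 1 read is worth. The number of symbols above 0 was 17824 in P1 and 20578 in P5 but 7985 in P4 and 10074 in M1. Of 7534 genes that reached 10 CPM in P1 and also in P5, P4 lacked reads for 19.8% and M1 for 10.1%. A 0 is therefore given as listed and without a fold. A log2 difference that includes a 0 depends on the 1 CPM added to each value before taking logs. A count of 3 reads corresponds to 0.216 CPM (P4) or 0.269 CPM (M1). Trp53 was at or below 0.260 CPM in every line, and Rb1 was at 10.3 (P1), 13.2 (P5) and 0 CPM (both P4 and M1). Whether the Rb1 reads of P1 and P5 lie outside the deleted part was not tested. Of 10 neuroendocrine markers, all were above 0 in P5, 7 in M1, 2 in P1 and 1 in P4. The SCLC label thus rests on few of these markers in P1 and P4. Ncam1 was above 0 in every line, and Chga was at 0 in P1, P4 and M1.

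The lines differed in which genes of the pathway had their lowest values. In M1, 6 of the 7 genes of fatty acid desaturation and elongation had the lowest values of all lines, led by Elovl1 and Elovl5. Srebf1, Srebf2, Lss, Msmo1 and Acly had their highest values in M1. Over the 32 genes, M1 was below every primary line in 28.1% and above in 15.6%, against 20.7% and 22% of all genes tested. In P4, by contrast, all mevalonate and most sterol genes had their lowest values, many of them 0. M1 was above P4 in those genes but often low too. It was below both P1 and P5 in 5 of the 6 mevalonate and 7 of the 11 sterol genes. The same held for 23 of the 32 genes and for 59.0% of all genes. P1 and P5 resembled each other in nearly all 32 genes. None of the differences between M1 and the primary lines passed the test across all genes.

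**Figure D1:**
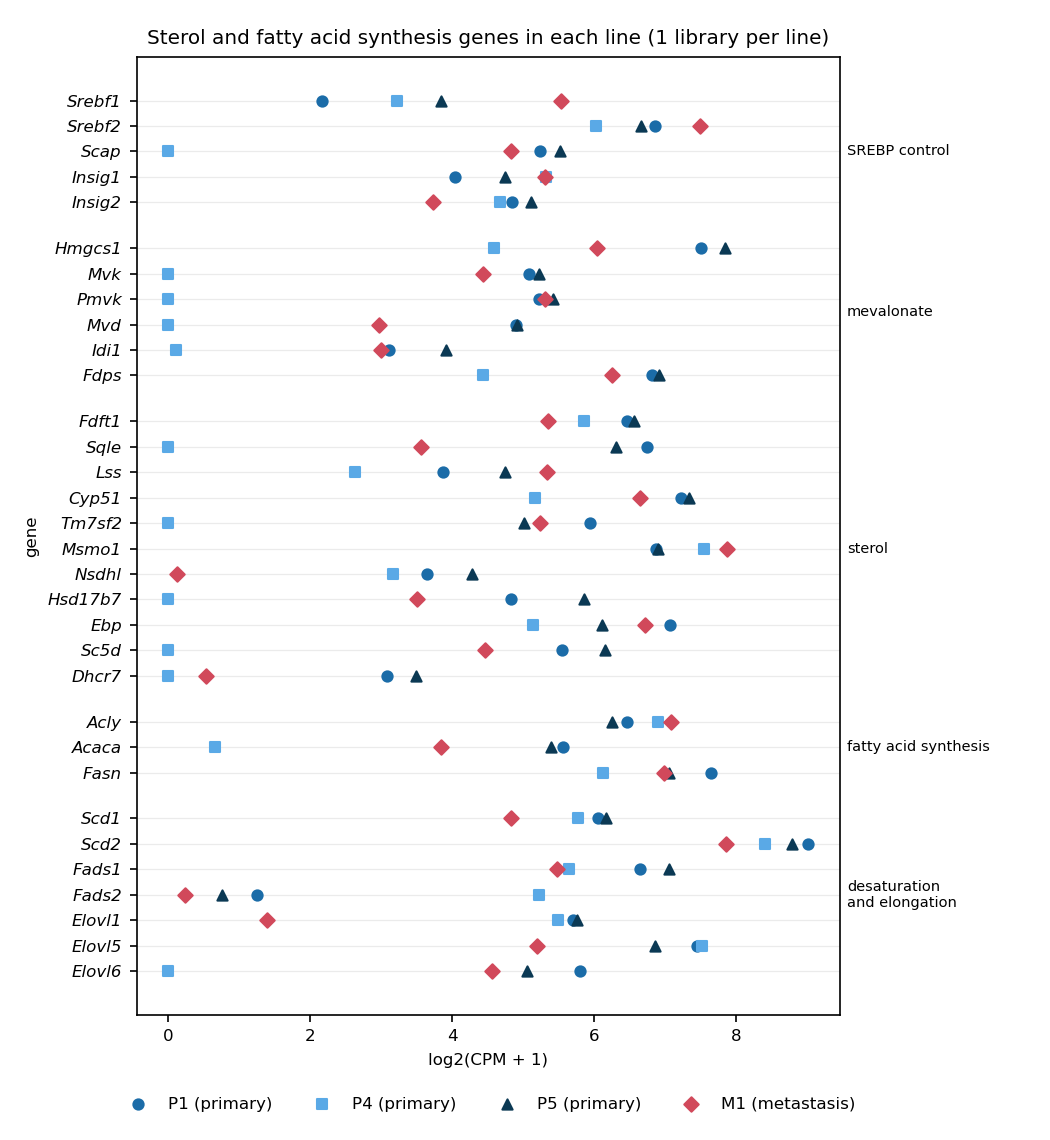
Level of each of the 32 genes on a log2(CPM + 1) scale (x axis) in the primary lines P1, P4 and P5 and in the metastasis line M1, with 1 point per library and genes grouped by role (y axis). P4 lies at 0 for 10 genes, and M1 lies left of all primary lines for 6 of the 7 desaturation and elongation genes.

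Summed over each role, the pattern was as follows. The 7 desaturation and elongation genes summed to 958 (P1), 701 (P4), 840 (P5) and 361 CPM (M1), so that M1 lay below every primary line (833 ± 129 CPM, SD, n = 3). Without Scd2, the largest contributor, the sums were 444, 364, 402 and 131 CPM. The 6 mevalonate genes summed to 398, 43.7 and 468 CPM in P1, P4 and P5 and to 213 CPM in M1, between P4 and the other lines. The 11 sterol genes summed to 756, 324, 731 and 593 CPM, again with P4 lowest and M1 next to it. The 3 fatty acid synthesis genes summed to 331, 188, 248 and 273 CPM, with M1 inside the primary range. The 5 genes of SREBP control summed to 198, 136, 217 and 303 CPM, with M1 highest. Without Srebf2 that order held, at 83.1, 71.8, 117 and 124 CPM.

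**Figure D2:**
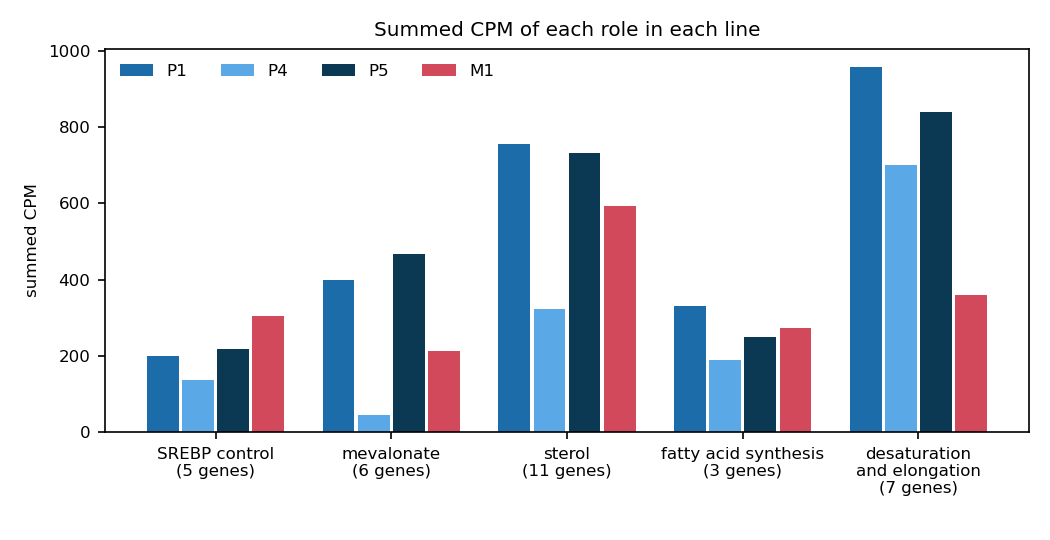
Summed CPM (y axis, from 0) of the genes of each role (x axis) in P1, P4, P5 and M1, with 1 bar per library and no error bars. M1 has the lowest bar for desaturation and elongation (361 CPM) and the highest for SREBP control (303 CPM), and P4 has the lowest bar for mevalonate (43.7 CPM).

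The controllers of the pathway were examined first. Srebf1 (chromosome 11, 60199084 to 60224186 in mm10), which encodes SREBP1, the main activator of fatty acid genes, was at 3.50 (P1), 8.28 (P4), 13.3 (P5) and 45.4 CPM (M1). The value of M1 was 3.42 times that of the highest primary line (log2 difference 2.46 ± 1.16, SE; limma, adjusted p = 0.686). Srebf2 (chromosome 15, 82147269 to 82205379), which encodes SREBP2, the main activator of cholesterol genes, was at 115 (P1), 63.9 (P4), 99.6 (P5) and 179 CPM (M1). It was thus 1.56 times the highest primary line (log2 difference 0.98 ± 0.53, SE; limma, adjusted p = 0.721). For both genes M1 did not overlap with the primary lines.

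The proteins that move or hold SREBP showed no shared pattern. Scap, the escort, was at 36.5 (P1), 44.9 (P5) and 27.5 CPM (M1) and listed at 0 in P4. Insig1, the retention factor that is itself an SREBP target, was at 15.4 (P1), 39.1 (P4), 25.9 (P5) and 38.7 CPM (M1) (log2 difference 0.61 ± 0.80, SE; limma, adjusted p = 0.746). M1 and P4 were thus alike in Insig1 and above P1 and P5. Insig2, the second retention factor, was at 27.6 (P1), 24.4 (P4) and 33.4 CPM (P5). It was at 12.3 CPM in M1, below every primary line (log2 difference -1.14 ± 0.68, SE; limma, adjusted p = 0.721).

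The mevalonate steps turn acetyl-CoA units into the isoprenoid blocks of cholesterol. Hmgcs1 (chromosome 13, 119690351 to 119708260), HMG-CoA synthase, was at 181 (P1), 23.0 (P4), 228 (P5) and 64.9 CPM (M1) (log2 difference -0.60 ± 1.55, SE; limma, adjusted p = 0.838). M1 was thus below P1 and P5 and above P4. Of 26 genes with a promoter in the reference, it was the only 1 with a full match to the 9 letters TCACNCCAC of the sterol regulatory element, the site that SREBP proteins bind. It is shown for that reason, from RefSeq (GRCm38.p6, the assembly of mm10), at chr13:119690101-119690400 on the plus strand, 250 bases before to 50 bases after the start site. Capitals mark the element, which begins 137 bases before the start site, and 4 copies of ATTGG, the reverse complement of the CCAAT box that the factor NF-Y binds.

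Hmgcs1: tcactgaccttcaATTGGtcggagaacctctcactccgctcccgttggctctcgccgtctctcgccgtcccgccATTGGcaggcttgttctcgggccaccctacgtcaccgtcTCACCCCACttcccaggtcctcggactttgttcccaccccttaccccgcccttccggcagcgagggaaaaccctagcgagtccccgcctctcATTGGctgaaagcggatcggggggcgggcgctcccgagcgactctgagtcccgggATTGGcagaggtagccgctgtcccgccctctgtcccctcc

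Of the kinases and later enzymes of the mevalonate branch, all but Fdps were at or near 0 in P4. P1 and P5 were similar in all but Idi1, which was higher in P5. Mvk, mevalonate kinase, was at 32.6 (P1), 36.4 (P5) and 20.5 CPM (M1) and listed at 0 in P4. Pmvk, phosphomevalonate kinase, was at 36.2, 41.7 and 38.6 CPM in P1, P5 and M1 and also at 0 in P4. Mvd, the decarboxylase, was at 28.8 (P1) and 29.1 CPM (P5), 0 in P4 and 6.80 CPM in M1. In these 3 genes P4 stood apart from all other lines, and M1 was close to P1 and P5 only in Pmvk. Idi1, the isomerase, was at 7.63 (P1), 14 (P5) and 6.98 CPM (M1) and at 0.0720 CPM in P4, which is 1 read. Fdps, farnesyl diphosphate synthase, was at 112, 20.6, 119 and 75.3 CPM in P1, P4, P5 and M1. All 6 mevalonate genes were thus lowest in P4, and in none of them did M1 lie outside the primary range.

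The sterol steps begin with squalene. Fdft1, squalene synthase, was at 86.9 (P1), 56.7 (P4), 93.4 (P5) and 39.8 CPM (M1), below every primary line (log2 difference -0.94 ± 0.54, SE; limma, adjusted p = 0.721). Sqle (chromosome 15, 59315092 to 59331193), squalene epoxidase and a rate-limiting step, was at 106 (P1) and 77.8 CPM (P5), at 10.7 CPM in M1 and listed at 0 in P4. Its log2 difference was -0.79 ± 3.24 (SE; limma, adjusted p = 0.900), since P4 lay far from P1 and P5. Without P4 the log2 difference was -2.96, and without P1 or P5 it turned to 0.40 and 0.19. Sqle was thus low in both P4 and M1, by different amounts.

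Past squalene, Lss and Msmo1 had their highest values in M1. Lss, lanosterol synthase, was at 13.6 (P1), 5.18 (P4), 25.7 (P5) and 39.5 CPM (M1) (log2 difference 1.59 ± 1.17, SE; limma, adjusted p = 0.721). Msmo1, the methylsterol monooxygenase, was at 116 (P1), 185 (P4), 119 (P5) and 232 CPM (M1) (log2 difference 0.76 ± 0.48, SE; limma, adjusted p = 0.721). M1 was above every primary line in both genes, and Msmo1 was the only sterol gene in which P4 was above P1 and P5. Nsdhl (chromosome X, 72918521 to 72958528), the dehydrogenase that acts with Msmo1 to remove methyl groups from the sterol ring, showed the opposite in M1. It was at 11.5 (P1), 7.99 (P4), 18.3 (P5) and 0.0895 CPM (M1), which is 1 read (log2 difference -3.57 ± 1.31, SE; limma, adjusted p = 0.539). The primary mean of 12.6 CPM was 141 times that value, with an interval from 25.3 to 5566 by the exact 95% Poisson interval of the single read. Partner enzymes of one reaction sequence thus lay at opposite ends of the range in M1.

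The other sterol enzymes had their lowest values in P4, as the mevalonate genes had. Cyp51, the lanosterol demethylase, was at 148, 34.9, 161 and 98.6 CPM in P1, P4, P5 and M1. Ebp, the sterol isomerase, was at 133, 34.3, 67.8 and 104 CPM in the same order. In both genes P4 was lowest and M1 lay inside the primary range. Tm7sf2, a sterol reductase, was at 60.3 (P1), 31.2 (P5) and 36.7 CPM (M1), and Hsd17b7, a sterol ketoreductase, at 27.4, 56.9 and 10.3 CPM. Sc5d, a desaturase of the sterol ring, was at 45.7 (P1), 70.1 (P5) and 20.9 CPM (M1). Dhcr7, the enzyme of the last step to cholesterol, was at 7.45 (P1), 10.2 (P5) and 0.448 CPM (M1), which is 5 reads. Tm7sf2, Hsd17b7, Sc5d and Dhcr7 were all listed at 0 in P4.

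Fatty acid synthesis begins with citrate. Acly (chromosome 11, 100476352 to 100528000), ATP citrate lyase, which supplies cytosolic acetyl-CoA to both branches, was at 86.7 (P1), 118 (P4), 75.3 (P5) and 134 CPM (M1). M1 was 1.13 times the highest primary line (log2 difference 0.54 ± 0.48, SE; limma, adjusted p = 0.721). Acaca, the acetyl-CoA carboxylase that makes malonyl-CoA, was at 46.1 (P1), 40.8 (P5) and 13.3 CPM (M1), and at 0.576 CPM in P4, which is 8 reads. Fasn (chromosome 11, 120805958 to 120825166), fatty acid synthase, was at 198 (P1), 68.9 (P4) and 132 CPM (P5) and at 125 CPM in M1 (log2 difference 0.04 ± 0.74, SE; limma, adjusted p = 0.977). Without P4 the sign of the Fasn difference turned, to -0.36. The values of M1 thus lay inside the primary range for Acaca and Fasn and just above it for Acly.

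The desaturases place double bonds in fatty acids. Scd1 and Scd2, which lie near each other on chromosome 19 and encode stearoyl-CoA desaturases, both had their lowest value in M1. Scd1 was at 65.5 (P1), 53.7 (P4), 70.4 (P5) and 27.4 CPM (M1) (log2 difference -1.17 ± 0.50, SE; limma, adjusted p = 0.627). Scd2 was at 515 (P1), 337 (P4), 438 (P5) and 230 CPM (M1) (log2 difference -0.88 ± 0.44, SE; limma, adjusted p = 0.716). The lowest primary line was 1.96 and 1.47 times M1 in Scd1 and Scd2. The genes are paralogs, and how reads common to both were assigned is not known, so that their separate values are uncertain.

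Fads1 and Fads2, the delta-5 and delta-6 desaturases of polyunsaturated fatty acids, also lie near each other on chromosome 19 but differed in P4. Fads1 (10182877 to 10196874) was at 98.6 (P1), 49.1 (P4), 132 (P5) and 43.4 CPM (M1) (log2 difference -0.97 ± 0.74, SE; limma, adjusted p = 0.721). Fads2 (10062765 to 10101503) was at 36.4 CPM in P4 but at 1.36 (P1), 0.694 (P5) and 0.179 CPM (M1), the last of which is 2 reads with an exact 95% Poisson interval from 0.0217 to 0.647 CPM. P4 was therefore the only line above 1.36 CPM in Fads2, whereas Fads1 was low in P4 and M1 and high in P1 and P5.

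The elongases lengthen fatty acids, and 2 of the 3 had far lower values in M1. Elovl1 (chromosome 4, 118426874 to 118432953), which elongates saturated and monounsaturated very long chains, was at 51.1 (P1), 43.8 (P4), 52.9 (P5) and 1.61 CPM (M1). The primary lines were tightly spaced at 49.2 ± 4.82 CPM (SD, n = 3), and the lowest of them was 27.2 times M1. The log2 difference was -4.26 ± 0.66 (SE; limma, adjusted p = 0.304). Elovl5 (chromosome 9, 77917365 to 77984519), which elongates polyunsaturated fatty acids, was at 173 (P1), 181 (P4), 114 (P5) and 35.6 CPM (M1). The lowest primary line was 3.21 times M1 (log2 difference -2.07 ± 0.49, SE; limma, adjusted p = 0.338). Elovl6, which elongates palmitate, did not share this: it was at 54.4 (P1), 32.0 (P5) and 22.6 CPM (M1) and listed at 0 in P4.

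Of the 32 genes, all of which passed the filter of 1 CPM in at least 1 line, 0 passed the threshold of 0.05 (limma, Benjamini-Hochberg adjusted). Of all 14888 genes tested, 0% passed. The test takes its spread from the 3 primary lines and thus asks whether M1 lies outside them. At an unadjusted p under 0.05, 2 of the 32 genes were lower in M1, Elovl1 and Elovl5, against 5.15% of all genes, and 0 were higher, against 4.53%. M1 was below every primary line in 9 of the 32 genes, or 28.1%, against 20.7% of all genes, and above every primary line in 5, or 15.6%, against 22%. Among genes with at least 10 CPM on average, including 28 of the 32, the shares were 25% against 29.6% below and 17.9% against 23.7% above. By count, the genes as a whole were thus near the background in both directions. Of the 9, 6 were among the 7 desaturation and elongation genes, 2 among the 11 sterol genes, 1 among the 5 genes of SREBP control and 0 among the others. With P4 left out, M1 was below both remaining lines in 23 of the 32 genes, but the same held for 59.0% of all genes.

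The median log2 difference of the 32 genes was 0.05, and that of all tested genes was -0.53. Among genes with at least 10 CPM on average, including 28 of the 32, the medians were 0.13 and -0.05. Without P4 the medians were -0.81 and -0.84, so that the position of the group in M1 depended on P4. By role, the median was 0.98 for SREBP control, 0.41 for mevalonate, 0.06 for sterol, 0.04 for fatty acid synthesis and -1.17 for desaturation and elongation. The median of the last role was -1.28 without P4 and -0.95 against P4 alone. That of the mevalonate genes was -0.67 without P4 and 2.93 against P4 alone. The value of 2.93 depends on the 1 CPM added, since 3 of the 6 genes were at 0 in P4 and Idi1 had 1 read there. Without P4, M1 was lower than the mean of P1 and P5 in all 7 desaturation and elongation genes and in all 6 mevalonate genes. It was also lower in 9954 of all 14761 genes tested without P4. Against P4 alone, M1 was lower in 6 of the 7, with Fads1 at -0.17. Elovl6, at 0 in P4, was higher in M1, as were all 6 mevalonate genes. Of all genes, M1 was below P4 in 29.9% and above it in 43.0%. With 1 library per line, a difference between lines and one between libraries cannot be told apart.

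**Figure D3:**
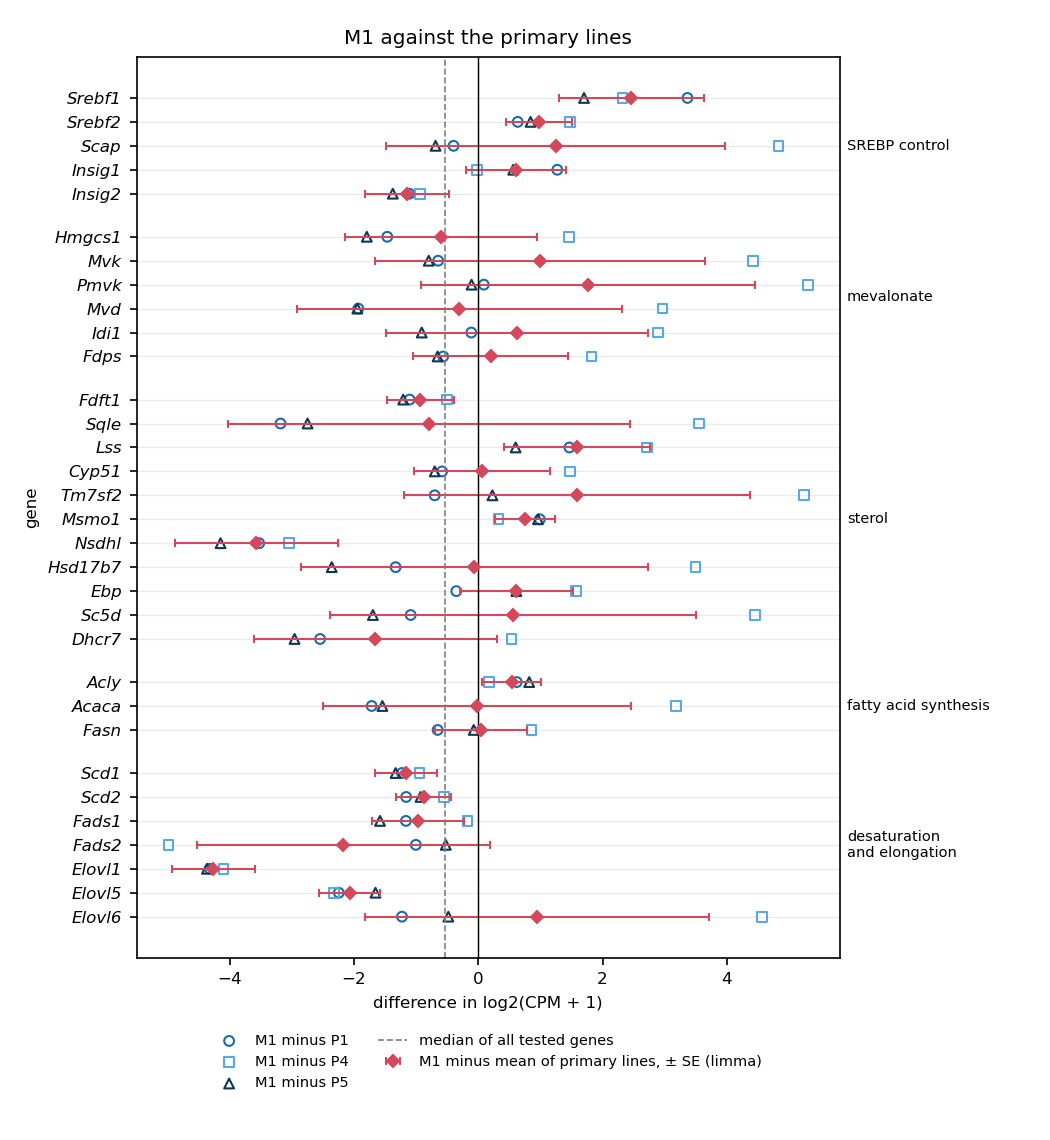
Difference in log2(CPM + 1) (x axis) of each gene (y axis) between M1 and the mean of the 3 primary lines (filled, with the SE from limma) and between M1 and each primary line (open symbols). For Elovl1, Elovl5, Nsdhl, Srebf1 and Srebf2 all open symbols lie on one side of 0, whereas for most mevalonate and sterol genes the difference to P4 lies far from those to P1 and P5.

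The primary lines were next compared among themselves. P1 and P5 lay within 1 log2 unit of each other in 30 of the 32 genes, with a median absolute log2 difference of 0.37. For 8261 genes with at least 10 CPM on average, that median was 0.43 and 83.0% lay within 1 log2 unit. The exceptions were Srebf1 and Hsd17b7, both higher in P5, with log2 differences of 1.67 and 1.03. P4 differed from P1 by a median absolute log2 difference of 1.99 (1.32 over the 8261 genes) and was below both P1 and P5 in 26 of the 32 genes. Taken line by line, P4 was below P1 in 26 and below P5 in 27 of the 32. Over the 8261 genes, P4 was below P1 in 5164 and below P5 in 5189, so that low values in P4 were common beyond these genes. The share of the 8261 genes below both lines was not counted. P4 was above both in 5 of the 32: Insig1, Msmo1, Acly, Fads2 and Elovl5. Of the 32 genes, P4 was the lowest of the 4 lines in 19, M1 in 9, P1 in 3 and P5 in 1. Over all tested genes, M1 was below every primary line in 20.7%, and such a share was not counted for P4, P1 or P5. Whether 19 is many for P4 is therefore not known.

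Of the 32 genes, 10 were listed at 0 in P4, and 0 in P1, P5 and M1. The 10 were Scap, Mvk, Pmvk, Mvd, Sqle, Tm7sf2, Hsd17b7, Sc5d, Dhcr7 and Elovl6, so that 3 of 6 mevalonate and 5 of 11 sterol genes were among them. Counted over the 28 genes that reached 10 CPM in P1 and in P5, 9 were at 0 in P4, or 32.1%, against the 19.8% of all such genes given above. In M1, 0 of the 28 were at 0, against 10.1%. Both libraries listed few genes, and their genes at 0 differed: M1 had between 6.80 and 38.6 CPM for 9 of the 10 genes at 0 in P4 and 0.448 CPM for Dhcr7. The low number of genes in the P4 library moves with these values, and its part in them was not tested.

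**Figure D4:**
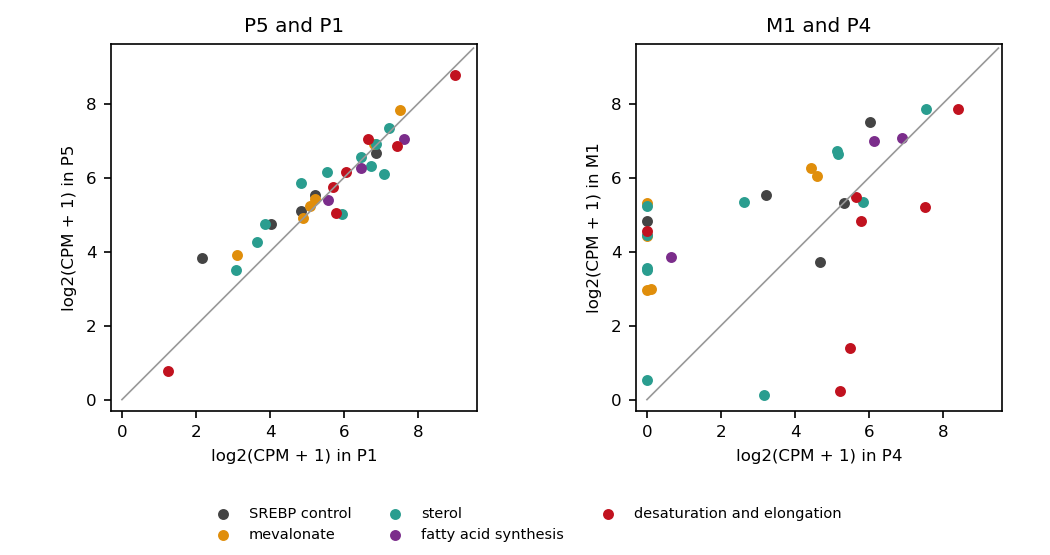
Level of each of the 32 genes on a log2(CPM + 1) scale in P5 against P1 (left) and in M1 against P4 (right), with 1 point per gene, colored by role, and the line of equal values. P1 and P5 follow the line with 30 of 32 genes within 1 log2 unit, whereas P4 and M1 depart from it in both directions, with 10 genes at 0 in P4 only.

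The promoters of the genes were searched for features that the choice by name had not used. RefSeq promoters of 300 bases were given for 26 of the 32 genes and not for Fdps, Fdft1, Sqle, Scd1, Scd2 and Fads1. A CCAAT box (CCAAT on either strand) was found in 22 of the 26, or 84.6%, against 41.1% of 27025 genes with a promoter and 43.2% of the 10566 that passed the filter on level. A gene with several listed start sites was counted once, for a match in any of them. The box was present at least 2 times in 12 genes. The 4 genes with no match were Scap, Acaca, Fads2 and Elovl6. A GC box (GGGCGG on either strand), the letters bound by SP1, was found in 80.8%, against 38.2% of all and 68.6% of filtered genes. The exact sterol regulatory element was found in 1 of the 26, or 3.85%, against 1.44% of all. With at most 1 mismatch outside the N it was found in 11, or 42.3%, against 26.7%. Windows of this kind are shown for 4 genes in which M1 lay outside the primary range, written on the strand of the gene.

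Srebf2: TCACCCCAT

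Nsdhl: TCACCCAAC

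Acly: TCAGGCCAC

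Elovl5: TCAGCCCAC

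These windows lay in promoters of genes with high values in M1 (Srebf2, Acly) and with low values (Nsdhl, Elovl5). Msmo1, above the primary range in M1, and Insig2, below it, also held such windows, which are not shown. A match is a description of the letters and not evidence of binding. With 1 full match, the element could not be related to the levels in the lines.

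A further 67 genes of sterol and fatty acid metabolism were examined, of which 59 passed the filter. Of these, 0 passed the threshold (limma, adjusted), as for all genes. At an unadjusted p under 0.05 (limma), 5 of the 59 were lower and 1 was higher, against the 5.15% and 4.53% of all genes given above. M1 was below every primary line in 19 (32.2%) and above in 12 (20.3%), against the 20.7% and 22% of all genes given above. Their median log2 difference was -0.55, against -0.53 for all genes. Among the 59 were 9 other genes of desaturation and elongation. M1 was below every primary line in 4 of these (44.4%) and above in 2 (22.2%), so that the 6 of 7 above was not matched.

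The genes of this wider list with the largest log2 differences were Lipa, Acsl1, Stard4, Apoe, Mlxip and Lpin1. Lipa, the lysosomal acid lipase that frees cholesterol from esters, was at 57.9 (P1), 20.8 (P4), 55.1 (P5) and 0.448 CPM (M1) (log2 difference -4.85 ± 1.02, SE; limma, adjusted p = 0.304). Acsl1, which activates long-chain fatty acids, was at 23.1 (P1), 20.0 (P4) and 33.8 CPM (P5) with 0 in M1 (log2 difference -4.70 ± 1.04, SE; limma, adjusted p = 0.318). Both thus separated M1 from every primary line. With 0.1 CPM added instead of 1 CPM, the Acsl1 difference was -7.97, so that its size is not fixed by the data. Stard4, a sterol carrier, was at 44.9 (P1) and 32.5 CPM (P5) and at 0 in P4 and M1. Mlxip, a glucose-responsive transcription factor, was at 8.29 (P1), 12.7 (P4) and 8.07 CPM (P5) and at 0 in M1. Lpin1, a phosphatidate phosphatase, was at 1.78 (P1), 43.0 (P4), 5.81 (P5) and 0 CPM (M1). P4 thus had the highest values of Lpin1 and, as given above, of Fads2.

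Apoe, the apolipoprotein of cholesterol transport, was at 2.94 (P1), 4.03 (P4), 2.08 (P5) and 41.9 CPM (M1) (log2 difference 3.45 ± 1.26, SE; limma, adjusted p = 0.533). Macrophages also express Apoe, and the 9 immune markers examined summed to 172 CPM in M1 and to between 0.0720 and 9.81 CPM in the primary lines. Of the 9, 6 were above 0 in M1, while Ptprc, Cd3e and Cd79a were at 0. The part of immune cell RNA in the value of Apoe, or in that of any of the 32 genes in M1, was not tested. The 7 fibroblast markers summed to 104 (P1), 33.7 (P4), 1012 (P5) and 38.5 CPM (M1), with 6, 2, 7 and 2 of them above 0. The sum was thus higher in P1 and P5, but mainly in P5, and Col1a2 was lowest in P1. Col1a2 was at 7.66 (P1), 33.6 (P4), 206 (P5) and 38.4 CPM (M1). The part of fibroblast RNA in the values of the mevalonate and sterol genes was not tested. The 10 hepatocyte markers summed to at most 2.26 CPM in any line and to 0.0895 CPM in M1, with Alb at 0 throughout. Among 7 adipocyte markers, Adipoq, Plin1, Lep and Cfd were at 0 in every line, and the sums were at most 13.2 CPM. The alveolar type 2 markers summed to between 19.0 and 40.2 CPM, mostly from Etv5 and Abca3, with Sftpb at 0 throughout.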

How the data were processed

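Total RNA of 4 untreated murine SCLC lines was sequenced, with 1 library per line. The labels name a total RNA kit and the study's methods a kit for 3' ends of mRNA, so that levels were compared between lines and not between genes. The authors deposited CPM, scaled so that every column adds up to 1000000. The submitters' processing notes name mm10. Aligner and counter: not given in the sources used here. Between 79.0% and 88.8% of values above 0 were whole multiples of the most frequent value, taken as 1 read (tolerance 0.001 reads), so that the values are not all whole reads, and a count model was not used. Rows without a symbol (85 of 54838, at most 0.0130% of a library) were left out.

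M1 was compared with the primary lines by limma 3.58.1 (R 4.3.3) on a log2(CPM + 1) scale, by linear models and moderated statistics with a trend, two-sided. Genes reaching 1 CPM in any line (14888) were tested, with Benjamini-Hochberg adjustment over all of them and a threshold of 0.05. The procedure was first tested on simulated data. Fold changes on this scale understate the change of low genes, and those of a gene at 0 in M1 depend on the pseudocount and are no bound. With 3 lines against 1, M1 is assumed to vary like the primary lines (2 residual degrees of freedom). P-values measure only the spread between these lines. The column names of P1 and P5 carry a common number of unknown meaning, so that they may not be independent. Intervals and the floor of 3 reads cover counting error only. Groups were taken from the sample titles. The labels give lung as the origin of every line, and the series text the liver for M1. Alternatives were the pseudocount, the filter, a rescaling by median ratios, each primary line left out, a library term and the trend. Statistics are given for Srebf1, Srebf2, Insig1, Hmgcs1, Sqle, Acly, Fasn, Scd1 and Scd2 and the 8 other genes of the group with the smallest unadjusted p, and values for the 6 genes of the wider list with the largest difference. Some genes that this rule names are not reported here. A promoter was printed for genes with the exact element. The genes and lists were chosen with earlier results of these data known.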

Additional observations from a re-analysis of the deposited data

How the results depend on the processing

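In each of 10 alternatives 0 of all genes tested passed the threshold, so that the count of 0 among the 32 says nothing about stability. The smallest adjusted p was 0.0664 (limma, with the library term described below, 1 residual degree of freedom). The sign of the difference was the same in every fit for 15 genes. It was higher in M1 for Srebf1, Srebf2, Lss, Msmo1, Ebp and Acly and lower for Insig2, Fdft1, Nsdhl, Scd1, Scd2, Fads1, Fads2, Elovl1 and Elovl5. In all of these but Ebp, M1 lay outside the primary range, so that only the rescaling could have turned the sign. The shared sign is therefore no measure of stability, and how often it held over all genes was not counted. Leaving out 1 primary line moved the median of the 32 genes between -0.81 (without P4) and 0.56 (without P5), the count below every remaining primary line between 9 and 23 (without P4), and the count above between 6 and 7. With a library term for P4 and M1 against P1 and P5, which compares M1 with P4, the median was 1.47 (0.00 over all genes), the count above P4 was 22 (68.8%, against 43.0% of all genes), and the differences were -0.015 for Insig1, 1.46 for Hmgcs1 and 3.55 for Sqle. The sign also turned for Sqle with a pseudocount of 0.1 (0.21) and over the lines left out, which gave -2.96 to 0.40 for Sqle (the latter without P1, and 0.19 without P5) and -0.36 (without P4) to 0.39 for Fasn. The cause was not tested. With fewer than 3 reads counted as 0, 1 of 28 genes (Nsdhl) was at 0 in M1 instead of 0 genes. With 1 mismatch allowed, promoters of 11 genes held the sterol element. The filter of 10 CPM on average removed Idi1, Nsdhl, Dhcr7 and Fads2 from the test. No paired analysis was possible, since M1 came from another mouse than the primary lines and was the only metastasis line. With 1 metastasis line, no spread between metastases can be given, and values of a few reads limit Nsdhl, Fads2, Idi1 and Dhcr7.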
